A study of Sus scrofa with 9 samples.

Results

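Transfer RNA rows were examined in total RNA from germs of the third deciduous molar (Dm3) in the lower jaw of miniature pigs. A row was taken as a transfer RNA by its name alone. Of the 34580 rows of the expression table, 65 qualified, 47 written in the nuclear style (TRNA, an amino acid letter and an anticodon, as in TRNAL-CAA) and 18 in the mitochondrial style (tRNA-Cys). The nuclear-style TRNAN-AUU and TRNAC-ACA were at 0 reads in every library, so that 45 nuclear-style and 18 mitochondrial-style rows carried values. Germs came from untreated fetuses delivered by cesarean from anesthetized sows. The fetuses were 40 (E40), 50 (E50) or 60 (E60) embryonic days old, when the germ is at the cap, the early bell or the late bell, respectively, and each age had 3 libraries. The labels do not say whether the libraries of a stage came from separate fetuses or from pools, so p-values measure only the spread between these libraries. A germ holds epithelium, mesenchyme and other tissue, and in such bulk samples fewer cells of a type and less RNA per cell cannot be told apart.

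Transfer RNAs are short adaptor molecules that bring each amino acid to the ribosome and read the codons of the messenger RNA through their anticodon. The cytosolic ones are transcribed by RNA polymerase III from many nuclear gene copies, trimmed at both ends, modified at many bases and charged by aminoacyl-tRNA synthetases. The mitochondrial ones are cut out of long transcripts of both strands of the mitochondrial genome, where they lie between the messenger RNAs and the ribosomal RNAs, and serve only the translation of the respiratory chain subunits encoded there. Their strong folding and their base modifications make them poor templates for ordinary RNA sequencing, which reads some transfer RNAs more readily than others.

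The depth of the libraries split them into 2 sets that cut across the stages. Whole reads were recovered from the FPKM values, and the mapped totals were between 938999 and 1324331 reads at E40, between 14376672 and 16692361 at E50, 16140470 for E60 library 1, and 1381350 and 1761189 for E60 libraries 2 and 3. The 4 deep libraries (E50 and E60 library 1) therefore held 61875819 reads and the 5 shallow ones (E40 and E60 libraries 2 and 3) 6457909. These totals are the ones that the FPKM values imply, and 99.95% to 99.98% of each fell in the rows of the expression table. Whether they count all mapped reads of a library is not known. All E40 libraries were shallow and all E50 libraries deep, so that the step from E40 to E50 is also a step from one set to the other and both cannot be told apart, and the comparison of E40 with E60 libraries 2 and 3 is the one between stages within a set. On a row of 73 bases a single read was worth between 7.78 and 14.6 FPKM in the shallow libraries and between 0.821 and 0.953 FPKM in the deep ones. The summed enamel matrix markers reached 18292 FPKM in E60 library 1 and 3384 and 8384 in libraries 2 and 3, against at most 22.4 in any E40 or E50 library, so that each E60 library carried the markers of its labelled stage (AMELX was not analysed here). Summed markers of dental epithelium were between 1363 and 4886 FPKM and those of dental mesenchyme between 112 and 441 over the 9 libraries, with CDH1 at 0 throughout. Markers of other tissues differed as well. The 4 muscle markers listed summed to between 122 and 137 FPKM at E40, with CKM and TNNT3 at 0 throughout, and to at most 16.6 in every other library. The 3 germ cell markers listed, mainly TEX14, summed to between 8282 and 18468 FPKM in the shallow libraries and to at most 27.7 in the deep ones. Whether these differences had a part in the values below was not tested.

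Summed over their rows, the nuclear-style transfer RNAs took a similar small share of every library, whereas the mitochondrial-style ones differed widely. The 47 nuclear-style rows held between 134 and 154 reads in the E40 libraries, 151 and 152 in E60 libraries 2 and 3, and between 1517 and 2379 in the deep libraries. In reads per 1000000 mapped reads (RPM) this was 155, 127 and 116 at E40, 142, 90.9 and 121 at E50, and 147, 109 and 86.3 at E60, and the sets overlapped. The 18 mitochondrial-style rows held 6507, 5965 and 4844 RPM at E40, 160, 103 and 12.6 at E50, and 147, 5355 and 4044 in E60 libraries 1, 2 and 3. All 5 shallow libraries thus lay above all 4 deep libraries, and E60 library 1 stood with the E50 libraries. The row tRNA-Ser alone gave between 74.5% and 93.5% of the mitochondrial-style reads in the shallow libraries.

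**Figure D1:**
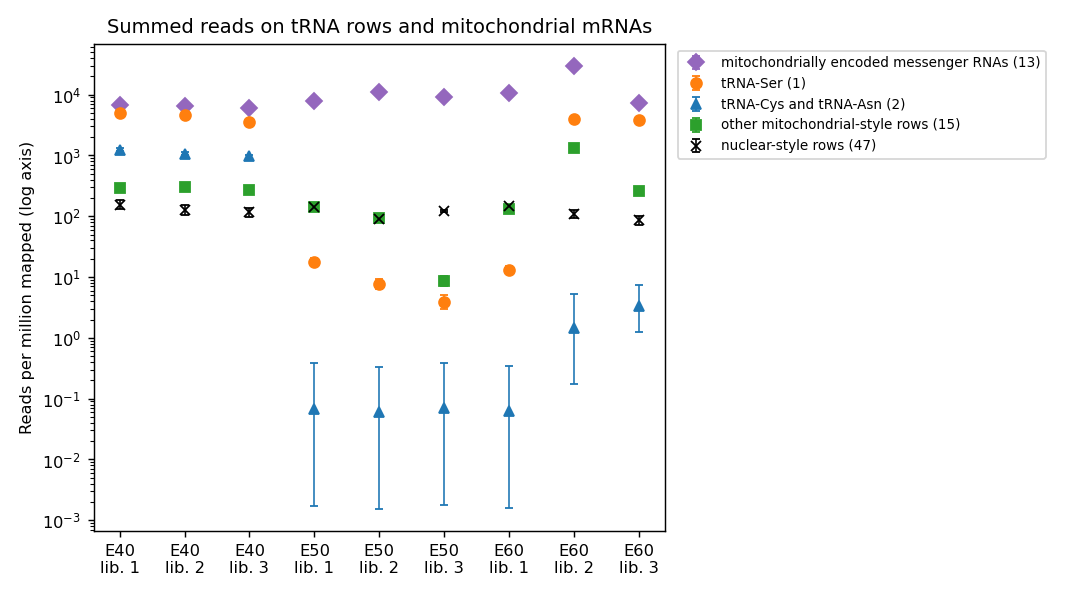
Summed RPM (reads per 1000000 mapped reads, log axis) in each of the 9 libraries, for mitochondrial messenger RNAs, tRNA-Ser, tRNA-Cys with tRNA-Asn, the other 15 mitochondrial-style rows and the nuclear-style rows, with the number of rows in brackets; bars are exact 95% binomial intervals, which cover counting error only. The nuclear-style sum stays between 86.3 and 155 in every library, tRNA-Ser lies between 3608 and 4979 in the shallow libraries and between 3.90 and 17.9 in the deep ones, and tRNA-Cys with tRNA-Asn is high at E40 only.

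The row tRNA-Cys, which reads cysteine codons in the mitochondrion, was abundant at E40 and nearly absent from every other library. It held 870, 860 and 977 reads in the E40 libraries, 1, 0 and 0 at E50, and 0 in all 3 E60 libraries. In FPKM the E40 values were 14038, 12386 and 11178 (mean 12534 ± 1436, SD, n = 3). E40 did not overlap with the other stages, and the row ranked second among the mitochondrial-style rows in all 3 E40 libraries. Pooled, the rate at E40 was 37343 times that at E50, with an exact 95% counting interval from 6697 to 1475500, which rests on 1 read at E50. Against E60 libraries 2 and 3, of like depth, it was at least 855-fold higher, with 3 reads over both libraries as the floor (14.5 FPKM for this row). The fall passed limma's test with Benjamini-Hochberg adjustment from E40 to E50 (adjusted p = 0.000102), from E40 to E60 (adjusted p = 5.32e-05) and from E40 to E60 within the shallow set (adjusted p = 7.02e-05).

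The row tRNA-Asn, the asparagine carrier, which lies beside tRNA-Cys in the same cluster of the mitochondrial genome, behaved alike but kept a trace at E60. It held 295, 266 and 300 reads in the E40 libraries, 0, 1 and 1 at E50, and 1, 2 and 6 at E60. The FPKM values were 4189, 3371 and 3020 at E40 (mean 3527 ± 600, SD, n = 3), at most 0.927 in the deep libraries, and 19.3 and 45.4 in E60 libraries 2 and 3. All E40 libraries lay far above the rest, and both shallow E60 libraries lay above all deep ones. At E40 the pooled rate was 102 times that of E60 libraries 2 and 3 (95% counting interval 51.5 to 237). On the log2(FPKM + 0.1) scale its change was -12.92 from E40 to E50 (SE 1.36, limma adjusted p = 0.00315), -8.55 from E40 to E60 (SE 1.36, adjusted p = 0.0171) and -6.88 within the shallow set (SE 0.92, adjusted p = 0.00637). For tRNA-Ala and tRNA-Tyr, which belong to the same cluster, the changes within the shallow set were -0.54 (limma adjusted p = 0.929) and -0.27 (adjusted p = 0.879). The muscle markers were likewise higher at E40 than elsewhere, as given above, and their part in the values of tRNA-Cys and tRNA-Asn was not tested.

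The row tRNA-Ser, whose name does not tell which of the 2 mitochondrial serine carriers it is, followed the set and not the stage. It held 4675, 4824 and 4778 reads at E40, 263, 129 and 56 at E50, 213 in E60 library 1, and 5586 and 6659 in E60 libraries 2 and 3. In FPKM this was 70123, 64583 and 50815 at E40, 253, 109 and 54.9 at E50, and 186, 56956 and 53253 at E60. The sets did not overlap, with a pooled rate 384 times as high in the shallow libraries (95% counting interval 356 to 416). On the log2 scale E60 library 1 differed from E60 libraries 2 and 3 by -8.21 (SE 0.96, limma adjusted p = 0.00042), with the lone library assumed to vary like the other groups. Within the shallow set E60 differed from E40 by -0.15 (SE 0.72, adjusted p = 0.906), and the pooled rate at E40 was 1.11 times that at E60 (95% counting interval 1.08 to 1.13). Summed, the germ cell markers, mainly TEX14, split the libraries by set in the same way. Of the 3, TEX14 and SYCP3 were higher in every shallow library. The third, DDX4, was not, and none was higher in every deep library. Of the other marker lists, vessel lining summed to 50.8 to 61.1 FPKM in the deep and 16.3 to 28.3 in the shallow libraries, and red blood cells to 675 to 1028 and 98.9 to 394. All 3 vessel lining rows were higher in every deep library. Of the 6 red blood cell rows 1 was higher in every deep library and none in every shallow one. The median log2 difference of these 6, deep minus shallow, was -0.31, against the direction of their sum. The part of these markers in the values of tRNA-Ser was not tested.

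**Figure D2:**
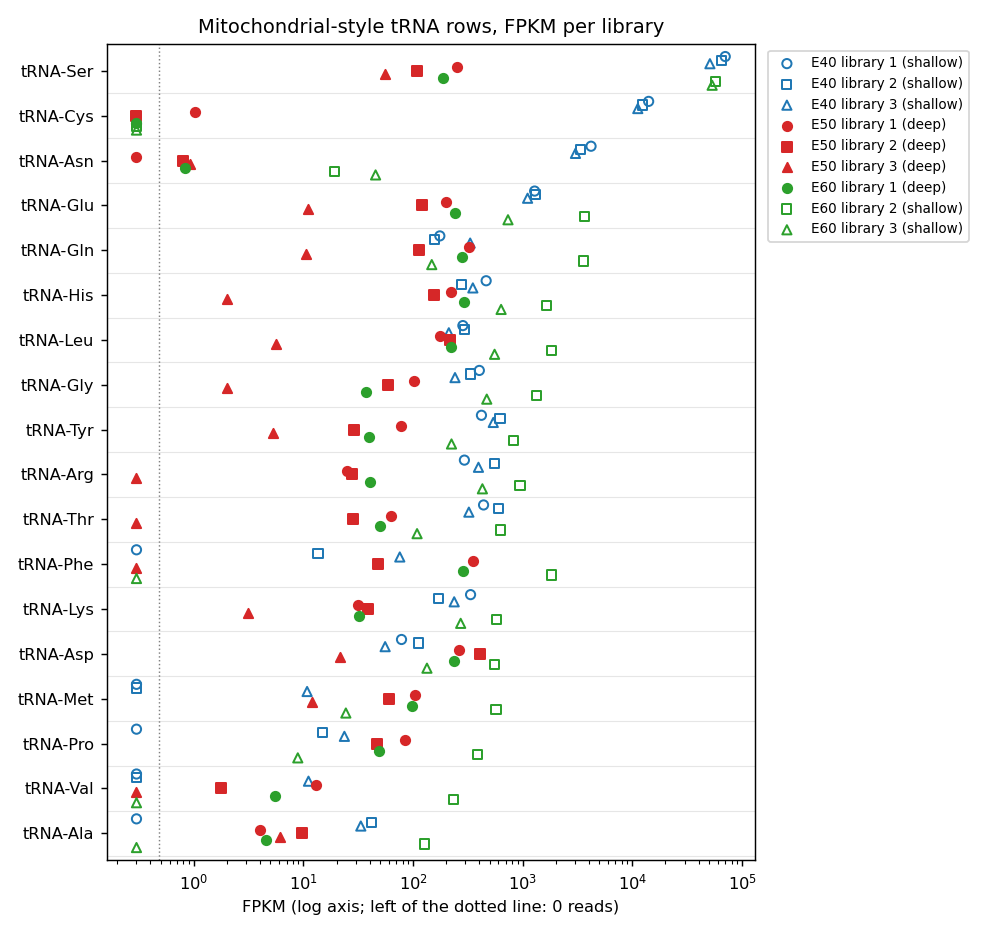
FPKM (log axis) of the 18 mitochondrial-style rows, ordered by their mean in the shallow libraries, with 1 mark per library; open marks are shallow libraries, filled marks deep ones, and marks left of the dotted line hold 0 reads. For tRNA-Cys and tRNA-Asn the E40 marks stand apart from all others, for tRNA-Ser all 5 open marks lie between 50815 and 70123, and in the lower rows E60 library 2 lies to the right and E50 library 3 to the left.

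The other 15 mitochondrial-style rows were moderately higher in the shallow libraries, with 2 libraries standing apart. Their sum was 288, 309 and 272 RPM at E40, 142, 95.1 and 8.63 at E50, and 134, 1310 and 260 at E60. E60 library 2 was above the 4 other shallow libraries in all 15 rows, with a median ratio to their mean of 5.42. It was also above them in 12 of the 13 mitochondrially encoded messenger RNAs, with a median ratio of 4.28. Among the nuclear-style rows the corresponding ratio was 0.867. E50 library 3 was below the 3 other deep libraries in 13 of the 15 rows, with a median ratio of 0.0437, and below them in 10 of the 13 messenger RNAs, with a median ratio of 0.456. It read tRNA-Arg, tRNA-Phe, tRNA-Thr and tRNA-Val at 0.

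Among these rows tRNA-Glu, the glutamate carrier, was the most abundant in the shallow set by mean FPKM. Its values were 1281, 1309 and 1105 FPKM at E40, 200, 122 and 11.1 at E50, and 241, 3641 and 732 in E60 libraries 1, 2 and 3. The sets did not overlap, and the pooled rate was 11.0 times as high in the shallow libraries (95% counting interval 9.89 to 12.3). Without E60 library 2, left out after the data were seen, it was 7.22 times as high (6.33 to 8.23). The arginine carrier tRNA-Arg lay between 293 and 944 FPKM in the shallow libraries and between 0 and 40.4 in the deep ones. The rows tRNA-Gly, tRNA-Lys, tRNA-Thr and tRNA-Tyr, which carry glycine, lysine, threonine and tyrosine, were also higher in every shallow than in every deep library, with pooled ratios between 11.0 and 13.5, and between 7.38 and 11.2 without E60 library 2. The sets overlapped in tRNA-Gln, tRNA-His and tRNA-Leu, the carriers of glutamine, histidine and leucine, where E60 library 2 carried much of the difference. The FPKM of tRNA-Gln was 175, 156 and 331 at E40, 325, 112 and 10.5 at E50, and 282, 3560 and 148 at E60. Its pooled rate was 5.02 times as high in the shallow set with E60 library 2 and 1.1 times as high without it (95% counting interval 0.860 to 1.40). For tRNA-His the ratio was 4.18 with and 2.67 without that library, and for tRNA-Leu 4.24 and 2.27.

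A few rows of the mitochondrial style did not share this direction at E40. The initiator and elongator of mitochondrial translation, tRNA-Met, was read 0, 0 and 1 times at E40, 107, 71 and 12 times at E50, and 110, 55 and 3 times at E60. The phenylalanine carrier tRNA-Phe held 0, 1 and 7 reads at E40, 361, 56 and 0 at E50, and 322, 178 and 0 at E60. In FPKM the E50 libraries ranged from 0 to 352 and the E60 libraries from 0 to 1841, the highest in E60 library 2. The aspartate carrier tRNA-Asp had 55.5 to 112 FPKM at E40, 21.5 to 408 at E50, and 237, 554 and 134 at E60. The proline carrier tRNA-Pro lay between 46.8 and 84.2 FPKM in the deep libraries and between 0 and 23.6 in the shallow ones other than E60 library 2, which reached 385. Both tRNA-Val and tRNA-Ala, the carriers of valine and alanine, held at most 22 reads in any library. Unlike the rows above, tRNA-Ala did share the direction when pooled, although E40 library 1 held 0 reads. Its pooled rate at E40 was 3.94 times that at E50 (counting interval 1.30 to 10.1). For tRNA-Val the counting interval of the same ratio, 0.0218 to 5.98, held equal rates.

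The strand of origin did not divide the rows by set. Of the 18, 7 are encoded on the light strand in mammals and 10 on the heavy strand, while tRNA-Ser has a form on each. Without tRNA-Cys and tRNA-Asn the remaining 5 of the light strand summed to between 76.7 and 599 RPM in the shallow libraries and between 5.43 and 48.3 in the deep ones. The 10 rows of the heavy strand summed to between 132 and 711 and between 3.20 and 94.0, respectively. Both strands were thus higher in every shallow library. The mitochondrially encoded messenger RNAs were not, since their sum was 5931 to 29213 RPM in the shallow and 7999 to 11139 in the deep libraries. Of their 13 rows, 8 were higher in every shallow library, 1 (COX1, a catalytic subunit of cytochrome oxidase) was higher in every deep library, and in 4 the sets overlapped.

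From E40 to E50, 8 mitochondrial-style rows fell and 1 rose in the test over all 19618 rows that 2 or more libraries read at 1 FPKM or above. A row passed when limma on log2(FPKM + 0.1) gave it an adjusted p below 0.05 together with a change of 1 or more in log2. Among all rows, 21.8% were lower and 16.8% higher. The rows that fell were tRNA-Arg, tRNA-Asn, tRNA-Cys, tRNA-Glu, tRNA-Lys, tRNA-Ser, tRNA-Thr and tRNA-Tyr, with log2 changes between -15.76 and -3.92, and tRNA-Met rose by 6.47 (SE 1.84, adjusted p = 0.0259), with 1 read in all at E40. The median over the 18 rows was -3.43, against 0.55 over all rows tested. Limma-voom on the recovered reads called the same 8 lower and did not call tRNA-Met. Leaving out E40 library 1, E50 library 2 or E50 library 3 left 2 calls, leaving out E40 library 2 left 3 and E40 library 3 left 5. Beside these, the fit without E60 library 1 gave 9 lower, with tRNA-Gly in addition, and 1 higher, where 24.2% and 30.5% of 19493 rows passed.

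From E50 to E60 no mitochondrial-style row passed by limma or limma-voom, and 10 of the 18 had an unadjusted p under 0.05 by limma and 8 by limma-voom. Of all rows 0.0510% were higher and 0.0204% lower. The E60 group of these fits held the deep library 1 and the shallow ones, whose difference entered the spread. Without E60 library 1, 9 rows rose and none fell, against 20% and 39.1% of all rows. They were tRNA-Arg, tRNA-Asn, tRNA-Glu, tRNA-Gly, tRNA-His, tRNA-Leu, tRNA-Lys, tRNA-Ser and tRNA-Tyr, with log2 changes between 4.07 and 8.91, and there the E60 libraries were shallow and the E50 libraries deep, so that stage and set cannot be told apart. From E40 to E60 tRNA-Asn and tRNA-Cys fell and no row rose, against 1.14% lower and 0.663% higher among all rows, although 1 call was left without E40 library 1 or without E40 library 2. Within the shallow set the same 2 rows fell and none rose, against 4.48% and 1.41%. Leaving out each library in turn gave between 2 and 3 calls there.

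Between E60 library 1 and E60 libraries 2 and 3, which share a stage, tRNA-Asn and tRNA-Ser were lower in library 1 and none was higher, against 17.2% lower and 26.7% higher among all rows. By limma-voom 8 were lower, tRNA-Arg, tRNA-Cys, tRNA-Glu, tRNA-Gly, tRNA-Lys and tRNA-Tyr in addition, of which tRNA-Cys held 0 reads in all 3 libraries and is no difference. Without E50 library 3 the count was also 8. Over all rows above 0, 27.9% were higher in every deep library and 13.8% in every shallow one. Of the 18 mitochondrial-style rows none was higher in every deep library and 8 were higher in every shallow one. A further row, tRNA-Pro, was higher in every deep library when E60 library 2 was left out.

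The nuclear-style rows were thinly covered in the shallow libraries. The most any of them reached there was 59 reads, against 301 in a deep library. In all deep libraries 43 of the 45 rows were above 0, and in all shallow libraries 17. Summed over the 5 shallow libraries, 6 rows were at 0 and 19 held at most 3 reads. At the rate of the deep set, 805 nuclear-style reads would fall in the shallow libraries, and 737 were found. The sum differed little between the sets, while the order of the rows was not alike. In the deep set the first rows by mean FPKM were TRNAY-GUA (217), TRNAA-AGC (164), TRNAD-GUC (160) and TRNAR-CCU (122), and in the shallow set TRNAE-UUC (489), TRNAD-GUC (277), TRNAV-AAC (164) and TRNAC-GCA (90.6). Across the 45 rows, Spearman's rho between libraries was 0.923 to 0.956 among the deep libraries, 0.658 to 0.782 among the shallow ones and 0.229 to 0.459 between the sets. E60 library 1 had a rho of 0.923 to 0.935 with the E50 libraries. These correlations describe rows that share a library and its depth.

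**Figure D3:**
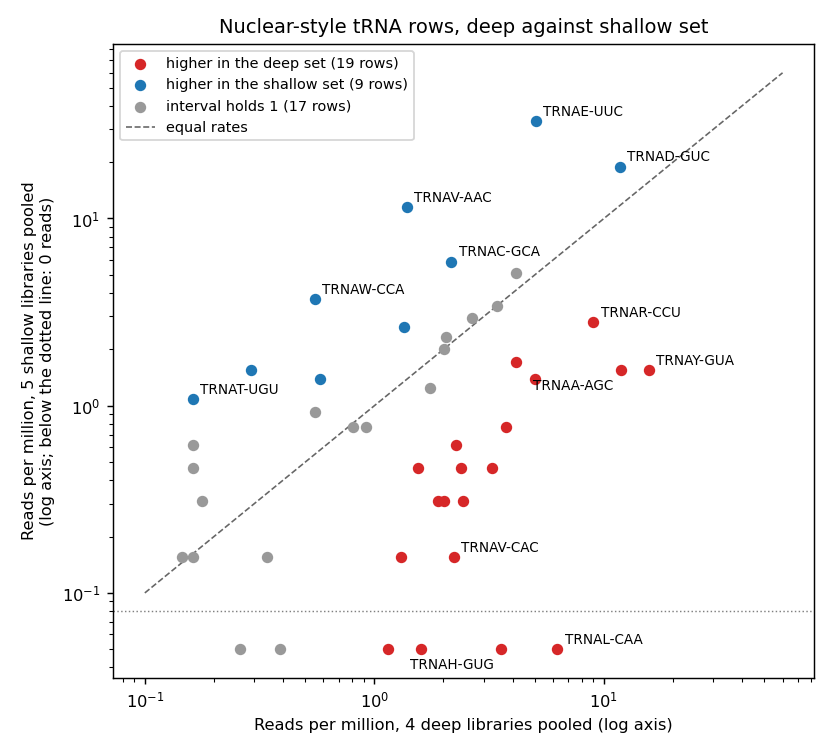
Pooled RPM of the 45 nuclear-style rows in the 4 deep libraries (horizontal, log axis) and the 5 shallow libraries (vertical, log axis); the dashed line marks equal rates, and points below the dotted line hold 0 reads in the shallow set. By the exact 95% counting interval of the ratio, 19 rows are higher in the deep set, 9 in the shallow set, and for 17 the interval holds 1.

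Of the 45 nuclear-style rows, 20 were higher in every deep library than in every shallow one and 3 were higher in every shallow one, where 27.9% and 13.8% of all rows above 0 were. After median-ratio scaling the counts were 12 and 6, and without E40 library 2 the second was 5. The shares of all rows above are for unscaled FPKM and all 9 libraries, and none is given for these 2 settings. The 20 rows include the 6 at 0 reads in every shallow library, where a low rate cannot be told from none. The pooled counting intervals put 19 rows higher in the deep set, 9 higher in the shallow set, and held equal rates for 17. These intervals cover counting error only and not the spread between libraries.

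Among the rows higher in the deep set, TRNAY-GUA, a tyrosine carrier, was the most abundant. It held 2, 2 and 2 reads at E40, 301, 210 and 252 at E50, 206 in E60 library 1, and 1 and 3 in E60 libraries 2 and 3. The sets were far apart, with between 172 and 281 FPKM in the deep and between 9.92 and 29.2 in the shallow libraries, and the pooled ratio was 10.1 (95% counting interval 5.48 to 21.2). The alanine carrier TRNAA-AGC, with 1, 0 and 1 reads at E40, 205, 129 and 195 at E50, and 205, 1 and 7 at E60, had a ratio of 7.66 (4.14 to 16.0).

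The leucine carrier TRNAL-CAA was at 0 reads in all 5 shallow libraries and held 146, 48 and 112 reads at E50 and 82 in E60 library 1. At the deep rate 40.5 reads would have been found in the shallow set, and the deep rate was at least 13.5-fold higher, with 3 reads over the 5 shallow libraries as the floor. The histidine carrier TRNAH-GUG, likewise at 0 in the shallow set, held 45, 33 and 65 reads at E50 and 77 in E60 library 1, at least 7.65-fold higher. The same bound was 3.44-fold for the alanine carrier TRNAA-UGC, with 16 to 34 reads per deep library, and 2.47-fold for the serine carrier TRNAS-UGA, with 11 to 25. The 2 other rows at 0 in the shallow set, TRNAL-UAG and TRNAV-UAC, which carry leucine and valine, had so few deep reads that 1.67 and 2.50 would have been found there at the deep rate, so that no difference was detectable at this depth.

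The arginine carrier TRNAR-CCU, one of the more abundant rows in both sets, held 4, 3 and 4 reads at E40, 85, 129 and 120 at E50, and 223, 3 and 4 at E60, with a pooled ratio of 3.23 (2.02 to 5.49). Its deep libraries lay between 79.4 and 189 FPKM and its shallow ones between 29.8 and 58.4, and did not overlap. Another arginine carrier, TRNAR-UCG, was even across the deep libraries, with 38, 37, 37 and 36 reads, and held 0 reads at E40 and 1 and 2 in E60 libraries 2 and 3. Its ratio of 5.15 has a counting interval from 1.73 to 25.3. The threonine carrier TRNAT-AGU, with between 55.5 and 82.9 FPKM in the deep and at most 25.7 in the shallow libraries, had a ratio of 3.59 (1.87 to 7.94), and the asparagine carrier TRNAN-GUU one of 4.82 (2.04 to 15).

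**Figure D4:**
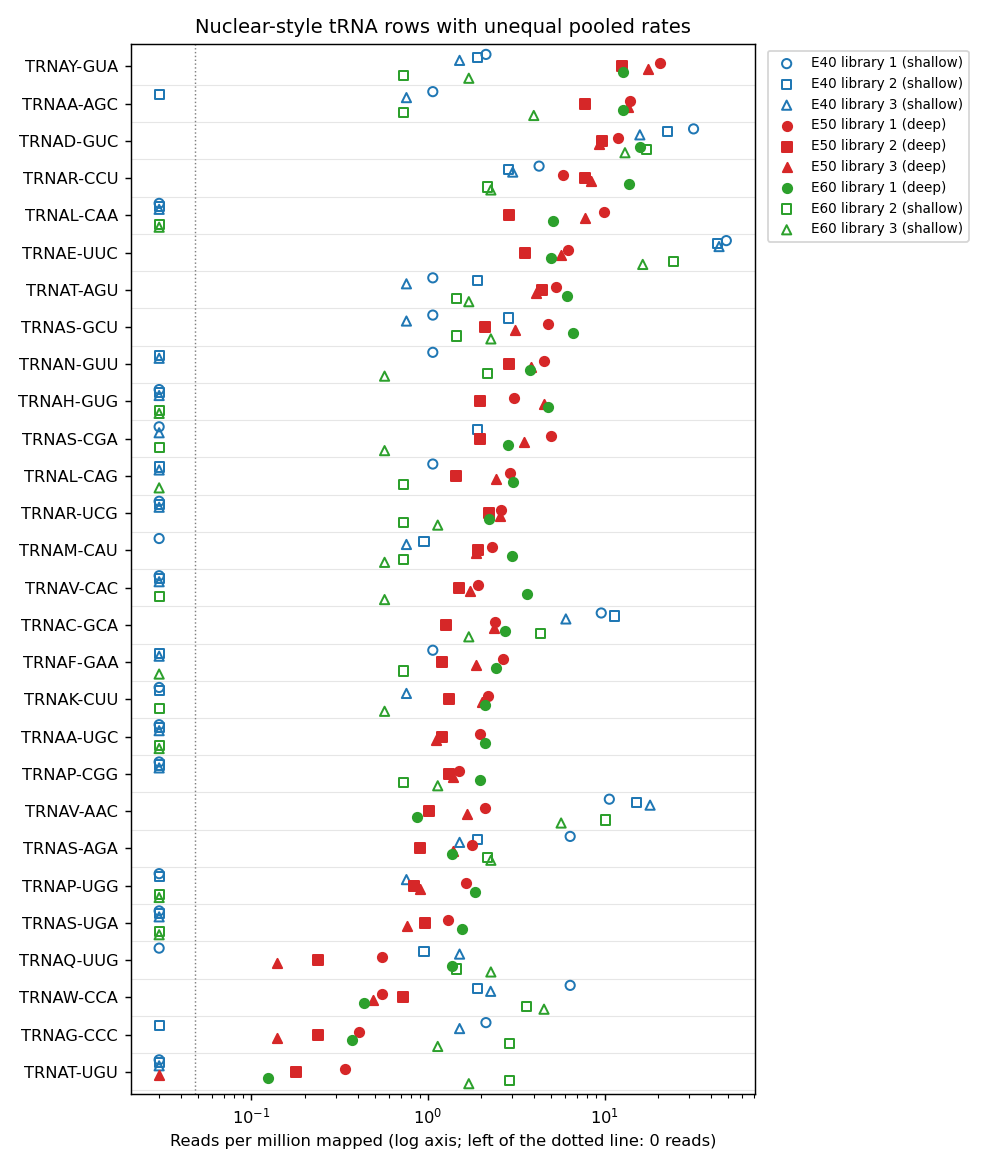
RPM (log axis) in each library for the 28 nuclear-style rows whose pooled counting interval differs from equal rates, ordered by their rate in the deep set; open marks are shallow libraries, filled marks deep ones, and marks left of the dotted line hold 0 reads. TRNAL-CAA, TRNAH-GUG, TRNAA-UGC and TRNAS-UGA have no reads in any shallow library, whereas the open marks of TRNAE-UUC, TRNAV-AAC and TRNAW-CCA all lie right of the filled ones.

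The rows higher in the shallow set were led by TRNAE-UUC, a glutamate carrier and the most abundant nuclear-style row in all 5 shallow libraries. It held 46, 46 and 59 reads at E40, 91, 59 and 82 at E50, and 80, 34 and 29 at E60. In FPKM this was 671, 599 and 610 at E40 (mean 627 ± 38.8, SD, n = 3), 85.0, 48.4 and 78.1 at E50 (mean 70.5 ± 19.4, SD, n = 3), and 67.9, 337 and 226 in E60 libraries 1, 2 and 3. All shallow libraries were above all deep ones, and within them E40 was above E60. The pooled rate was 6.57 times as high in the shallow set (5.50 to 7.85). Within the shallow set the pooled rate at E40 was 2.27 times that at E60 (counting interval 1.68 to 3.10), though the row did not pass there by limma (-1.18, SE 0.33, adjusted p = 0.0751). Without this row the nuclear-style sum was 81.0 RPM in the shallow and 120 in the deep set, against 114 in the shallow set with it.

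The valine carrier TRNAV-AAC held 10, 16 and 24 reads at E40, 31, 17 and 24 at E50, and 14, 14 and 10 at E60. Its FPKM was 146 to 248 at E40, 77.8 and 139 in E60 libraries 2 and 3, and 11.9 to 29.0 in the deep libraries, and the pooled rate was 8.24 times as high in the shallow set (5.96 to 11.4). The tryptophan carrier TRNAW-CCA, with 2 to 8 reads per shallow and 7 to 12 per deep library, did not overlap between the sets either and had a ratio of 6.76 (3.84 to 11.7). The cysteine carrier TRNAC-GCA had 82.8 to 156 FPKM at E40, 59.5 in E60 library 2, and 23.3 in E60 library 3, which lay within the range of the deep libraries, 17.2 to 37.3. This row and the mitochondrial-style tRNA-Cys were thus both highest at E40, but only the nuclear-style one was read in every library. The aspartate carrier TRNAD-GUC was abundant in both sets, with 217 to 438 FPKM at E40, 127 to 163 at E50, and 218, 238 and 179 at E60, and the glutamine carrier TRNAQ-CUG, with 50.3 to 71.0, 39.1 to 51.0 and 68.1 to 96.5 FPKM, had a counting interval that held equal rates.

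From E40 to E50, 15 nuclear-style rows rose and 4 fell, against 16.8% and 21.8% of all rows. Those that fell were TRNAE-UUC (log2 change -3.19, SE 0.57, limma adjusted p = 0.0123), TRNAV-AAC (-3.22, SE 0.79, adjusted p = 0.0168), TRNAC-GCA (-2.18, SE 0.45, adjusted p = 0.0129) and TRNAD-GUC (-1.15, SE 0.36, adjusted p = 0.0362), and limma-voom called all 4 lower, with the leucine carrier TRNAL-UAA in addition (-3.30), which held at most 5 reads in any library. Of the 15 that rose, 10 were at 0 reads in all E40 libraries, where the fitted change depends on the pseudocount. Limma-voom called 4 of the 15, TRNAA-AGC, TRNAN-GUU, TRNAR-UCG and TRNAY-GUA. A pooled counting interval above equal rates was found for 10 of the 15, and the others were TRNAL-AAG, TRNAL-UAG, TRNAR-ACG, TRNAS-UGA and TRNAV-UAC. The median log2 change over the 45 rows was 2.59, against 0.55 over all rows tested, but with rows at 0 in a stage set to 3 reads over that stage it was -0.12, against 0.42 over 19026 rows. The sign of the median thus differed between these summaries, which differ in pooling as well as in the treatment of zeros. After median-ratio scaling 13 rose and 6 fell, and the share of all rows under that scaling is not given here.

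These calls depended on single libraries, with 2 left without E50 library 2 or E50 library 3, 4 without E40 library 1, 10 without E50 library 1 and 12 without E40 library 2. Without E60 library 1, 22 rows rose and 6 fell, against 30.5% and 24.2% of all rows, with TRNAG-UCC and TRNAW-CCA, carriers of glycine and tryptophan, as the further rows that fell. There the change of TRNAY-GUA was 3.17 (SE 0.35, adjusted p = 9.55e-05) and that of TRNAE-UUC -3.19 (SE 0.30, adjusted p = 3.81e-05).

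From E50 to E60 no nuclear-style row passed by limma or limma-voom, with 10 of the 45 at an unadjusted p under 0.05 by limma and 4 by limma-voom, where 0.0510% and 0.0204% of all rows passed. The E60 group of these fits held the deep library 1 and the shallow ones, whose difference entered the spread. Without E60 library 1, 5 nuclear-style rows rose and 12 fell, against 20% and 39.1% of all rows. TRNAE-UUC (2.01, SE 0.34, adjusted p = 0.00115) and TRNAV-AAC (2.30, SE 0.40, adjusted p = 0.00146) were among the former, and TRNAY-GUA (-3.89, SE 0.39, adjusted p = 8.35e-05) and TRNAL-CAA, at 0 reads in both E60 libraries, among the latter. The E60 libraries in that fit were shallow and the E50 libraries deep.

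From E40 to E60, TRNAP-CGG, TRNAR-ACG and TRNAR-UCG, carriers of proline and arginine, passed as higher and none as lower, against 0.663% and 1.14% of all rows. Within the shallow set these and TRNAT-UGU, a threonine carrier, passed as higher, against 1.41% and 4.48%. All 4 were at 0 reads in the E40 libraries. The first 3 held 1 read in E60 library 2 and 2 in library 3, which is the floor, and TRNAT-UGU held 4 and 3. The calls were 5 without E40 library 1 and 7 without E60 library 2 from E40 to E60, and 7 without E60 library 2 within the shallow set. Limma-voom called none of the 45 in either comparison, with 5 and 6 at an unadjusted p under 0.05.

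Between E60 library 1 and E60 libraries 2 and 3, 13 nuclear-style rows were higher and 4 lower in library 1, against 26.7% and 17.2% of all rows. TRNAE-UUC (-2.02, SE 0.44, limma adjusted p = 0.00708), TRNAV-AAC (-3.12, SE 0.54, adjusted p = 0.00246), TRNAW-CCA (-3.20, SE 0.65, adjusted p = 0.00525) and TRNAR-ACG were lower, the last with 3 reads in library 1 and 3 in the others together. Among the higher ones were TRNAY-GUA (3.51, SE 0.52, adjusted p = 0.00126) and TRNAR-CCU (2.63, SE 0.36, adjusted p = 0.00089), and 7 were at 0 reads in both other libraries, TRNAL-CAA and TRNAH-GUG among them. Limma-voom called 16 higher and 6 lower, of which 9 and 4 were shared. Of the 19 nuclear-style rows that passed from E40 to E50, 13 were also called between these libraries of one stage. In 12 of them, TRNAE-UUC, TRNAV-AAC and TRNAY-GUA included, the deep side differed in the same direction, and TRNAR-ACG, higher at E50 and lower in E60 library 1, was the exception. Both comparisons set deep against shallow libraries. The share of all rows called in both is not given here, so the overlap is not read as a trait of these rows.

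Of the genes that make, process and charge transfer RNAs, most did not pass from E40 to E50, where 16.8% of all rows rose and 21.8% fell. Of 19 tested cytosolic synthetases and their partners 6 rose and 1 fell, among them IARS, the isoleucine enzyme (2.34, SE 0.71, limma adjusted p = 0.0317), and AIMP1, a scaffold of the synthetase complex (2.19, SE 0.70, adjusted p = 0.0361). Of 16 mitochondrial synthetases 3 rose and 1 fell, and RARS2, which charges mitochondrial tRNA-Arg, rose by 4.30 (SE 1.21, adjusted p = 0.0253). RARS2 was at 5.18, 0 and 1.84 FPKM in the E40 libraries, and the pseudocount enlarges its fitted change through the 0. Of 21 genes of the RNA polymerase III machinery 2 rose and 3 fell, with BDP1, a subunit of the initiation factor TFIIIB, changed by 1.81 and the polymerase subunit POLR3G by -1.69. Of 21 genes of end processing, splicing and export 8 rose and none fell, TSEN15, a subunit of the splicing endonuclease, by 2.05 (SE 0.51, adjusted p = 0.0173). Of 39 modification genes 6 rose and none fell, among them ELP2, a subunit of the Elongator complex. Of 11 genes of mitochondrial transcription and transfer RNA processing 3 rose and 3 fell, with TFAM, which packs mitochondrial DNA and starts its transcription, changed by 3.18 and the elongation factor TEFM by -2.91. Of 4 genes for selenocysteine 1 fell, PSTK, the kinase of seryl-tRNA, and the 1 cleavage gene tested, DICER1, did not pass. Of the 13 mitochondrially encoded messenger RNAs COX1 rose by 2.07 and none fell, with a median over the list of -1.44. Without E60 library 1, where 30.5% of all rows rose and 24.2% fell, the counts that moved by over 1.5 times included 7 mitochondrial synthetases, 5 polymerase III genes, 18 modification genes and 6 genes of mitochondrial processing higher and 7 mitochondrial messenger RNAs lower, and DICER1 passed as higher.

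Between E60 library 1 and the other E60 libraries 26.7% of all rows were higher and 17.2% lower in library 1. Of the lists, 9 of 19, 5 of 16, 6 of 21, 13 of 21, 12 of 39 and 6 of 11 were higher, in the order cytosolic synthetases, mitochondrial synthetases, polymerase III, end processing, modification and mitochondrial processing, and 2 polymerase III genes and 1 gene of mitochondrial processing were lower. The shares of polymerase III, modification and mitochondrial synthetase genes thus lay near that of all rows. Within the selenocysteine list SECISBP2 was higher and PSTK lower, and DICER1 was higher. Of the 13 mitochondrially encoded messenger RNAs 5 were lower in library 1 and none was higher. From E50 to E60 none of the genes passed by limma, and from E40 to E60 TEFM alone did. Without E60 library 1, where 20% of all rows rose and 39.1% fell from E50 to E60, 14 of 19 cytosolic synthetases, 7 of 16 mitochondrial synthetases, 14 of 21 polymerase III genes, 15 of 21 genes of end processing, 23 of 39 modification genes and 6 of 11 genes of mitochondrial processing fell. In that fit 9 of the 13 mitochondrially encoded messenger RNAs rose and 1 fell. Within the shallow set, where 1.41% of all rows were higher and 4.48% lower at E60 by limma, no gene of these lists was higher. AIMP2, a scaffold of the synthetase complex, GTF3A, the factor TFIIIA, and TEFM were among those lower. GTF3A was at 2.52, 2.25 and 0.895 FPKM at E40 and at 0 in E60 libraries 2 and 3, so that its fitted change depends on the pseudocount. Apart from the mitochondrially encoded messenger RNAs, at -1.44, the medians of the lists from E40 to E50 lay between 0.65 and 1.28, against 0.55 over all rows tested.

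Other short noncoding rows, named as microRNAs or small nucleolar RNAs, shared the thin coverage. Of 94 tested, 31 rose and 6 fell from E40 to E50 by limma, beside 16.8% and 21.8% of all rows. By limma-voom 1 rose and 17 fell, so that the direction of their calls differed between the methods. The share of all rows by limma-voom is not given here, so neither direction is read as a trait of these rows. In the sets, 41 of 140 were higher in every deep library (29.3%) and 5 (3.57%) in every shallow one, beside 44.4% and 6.67% of the 45 nuclear-style rows, 0% and 44.4% of the 18 mitochondrial-style ones, and 27.9% and 13.8% of all rows above 0.

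A nuclear-style row stands for a family of gene copies. In the RefSeq annotation of assembly Sscrofa11.1, which is not the build of the values, all 47 symbols were found, 45 of them with more than 1 entry and 510 entries in all. TRNAE-UUC had the most, 55. Across the 47 rows, Spearman's rho between the number of entries and the reads was 0.615 in the deep and 0.539 in the shallow set, as a description of rows that share libraries. Near-identical copies share reads, and how the authors' counting divided them, and whether it used the strand, is not given in the sources used here, so the level of a row is uncertain to that extent. The rows were 64 to 92 bases long by the recovered lengths and so shorter than the reads sequenced, and whether a read came from a mature transfer RNA, a precursor or, for the mitochondrial style, an uncut transcript was not measured. The isoleucine and tryptophan carriers of the mitochondrion were not analysed here.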

How the data were processed

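Total RNA was depleted of rRNA and sequenced as directional paired-end libraries. According to the submitters' processing notes the reads were aligned with TopHat to Sscrofa10.2. The authors computed FPKM per row and deposited 1 table of 34580 rows and 9 libraries, with no further scaling stated. The study's methods name Cuffdiff for its own comparisons. The program that counted reads for the table is not given in the sources used here.

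FPKM values were whole multiples of the value of 1 read. Whole reads (tolerance 0.002 reads), row lengths and mapped totals were recovered for all 28963 rows above 0. The recovery was tested on simulated data. Rows that 2 or more libraries read at 1 FPKM or above entered limma 3.58.1 in R 4.3.3 on log2(FPKM + 0.1) with a mean-variance trend and Benjamini-Hochberg adjustment over all rows, with 1 coefficient per stage over the 9 libraries. The E60 coefficient thus joined the deep E60 library 1 with the shallow E60 libraries, and all stages shared 1 estimate of the spread per row. The comparisons within E60 and within the shallow set came from a fit with E60 library 1 as its own group. Since 1 read of a 73-base row was worth at least 7.78 FPKM in the shallow libraries, the pseudocount enlarges the fitted change of rows at 0 reads there. The log-scale fit is the main result, and limma-voom on the recovered reads was an alternative. Shares of all rows past the limits are from the log-scale fit. None is given beside the counts by limma-voom or after median-ratio scaling.

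Pooled ratios have exact 95% binomial intervals, and 3 reads over a group served as the floor for groups at 0; both cover counting error only. The deep and shallow sets follow depth, not a label, and were described without a test. Named were all mitochondrial-style rows, nuclear-style rows past the limits over 9 libraries or without E60 library 1, those with at least 10 reads in a shallow library or among the 10 highest of a set, and up to 4 genes of each list. Members and lists were chosen with earlier results of these data known. Same-numbered libraries did not vary together. Other computations used Python 3.11.15, pandas 2.3.3, numpy 2.4.6, scipy 1.17.1 and matplotlib 3.10.9. Some genes of the lists are not reported here.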

Additional observations from a re-analysis of the deposited data

How the results depend on the processing

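The count of nuclear-style rows past the limits from E40 to E50, 19 in the log-scale fit, was 9 by limma-voom and between 2 and 28 when each library was left out in turn, and that of mitochondrial-style rows, 9, was between 2 and 10. From E50 to E60 both counts were 0 under every alternative except without E60 library 1, giving ranges of 0 to 17 and 0 to 9. From E40 to E60 the 3 nuclear-style rows became 1 with a pseudocount of 20, 0 by limma-voom and 3 to 7 on leaving out libraries, and the 2 mitochondrial-style rows became 1 with only the libraries of both stages and 1 to 2 on leaving out libraries. Within the shallow set the 4 nuclear-style rows became 0 by limma-voom and 4 to 7 on leaving out libraries. Between E60 library 1 and the others the 2 mitochondrial-style rows became 4 with a pseudocount of 1, 6 with a pseudocount of 20, 4 with median-ratio scaling, 8 by limma-voom and 2 to 8 on leaving out libraries. Median-ratio scaling gave 12 nuclear-style rows higher in every deep library in place of 20 and 6 in place of 3 higher in every shallow one, and leaving out libraries gave 3 to 5 of the latter and, for mitochondrial-style rows higher in every deep library, 0 to 1. It moved the median change of all rows from 0.55 to -0.14 from E40 to E50 and from 0.88 to -0.09 between E60 library 1 and the others. The remaining counts of nuclear-style and mitochondrial-style rows stayed within 1.5 times. By limma-voom the log2 change turned for TRNAL-UAG (-1.20), TRNAV-UAC (-0.00060) and TRNAR-ACG (-1.32) from E40 to E50, for TRNAR-ACG from E40 to E60 (-0.13) and for TRNAV-UAC between E60 library 1 and the others (-0.20). The cause of these shifts was not tested.

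With the library number as a replicate block, the counts from E40 to E50 were 17 and 8, and the 2 mitochondrial-style rows of the E60 comparison became 5. The numbers do not pair libraries by any label, and the correlation of deviations of same-numbered libraries lay between -0.515 and 0.109. Depth limits the shallow libraries, where the floor of 3 reads in a library is 23.3 FPKM or more for a row of 73 bases.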
